A study of Mus musculus with 2 samples.

Results

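Interferon-response genes are the genes that cells switch on when interferon reaches them, and they were followed here in mouse liver as a set of 38 listed genes. The genes were chosen by symbol, from a fixed list. No measured value entered that rule, but the list was drawn up with earlier results of these data known. Of the 38, 36 had a probe that could be named and 35 were measured on both arrays, out of 20660 named genes of which 13881 were measured on both. Mx1 and Mx2, of a GTPase family known to block virus replication, had no probe that could be named from its transcript accession. That does not show that the array lacks them. The 2'-5'-oligoadenylate synthetase Oas3 was measured on 1 array only.

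The livers came from C57B6J mice, either wild type (WT) or CREBH-Tg, and in the latter an active form of human CREBH is made from a cDNA, chiefly in liver. CREBH is a transcription factor of hepatocytes that acts on lipid genes and on acute phase genes. Both genotypes ate the HFHS diet for 12 weeks, and neither was compared with mice on another diet. RNA was pooled within each genotype and run on 1 one-colour Agilent array per genotype. The number, age and sex of the mice, and the promoter that drives the transgene, are not given in the sources used here. Without replicates no difference could be tested, and each is described by its size beside the noise between repeated spots of 1 array pair.

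Interferons bind receptors on the cell surface, and Janus kinases then activate STAT proteins. Type I and type III interferons act mainly on the interferon-stimulated response element (ISRE), through complexes that hold STAT2 and IRF9, while interferon gamma acts mainly on the gamma-activated site (GAS). The genes switched on include sensors of foreign nucleic acid, enzymes that degrade viral RNA or block its translation, the ubiquitin-like modifier ISG15, GTPases that attack pathogen vacuoles, and proteins that cut and carry peptides for MHC class I. In liver, hepatocytes, Kupffer cells and endothelial cells can all respond.

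The promoters of 6 genes are shown, 5 because they hold letters of the sites through which such genes are known to be switched on, and that of Oasl1 because it was the lowest gene of the set in CREBH-Tg. Each line holds the 150 bases before the start of the RefSeq transcript, on build GRCm38.p6 and in the direction of the gene. Capitals mark letters that match the core of the ISRE, GAAANNGAA or its reverse complement TTCNNTTTC, or the GAS, TTCNNNGAA, which reads the same on both strands.
Isg15, chr4:156200819-156200968, minus strand: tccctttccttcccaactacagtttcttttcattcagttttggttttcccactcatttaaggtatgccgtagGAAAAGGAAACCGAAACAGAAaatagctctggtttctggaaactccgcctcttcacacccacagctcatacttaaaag
Ifit1, chr19:34640739-34640888, plus strand: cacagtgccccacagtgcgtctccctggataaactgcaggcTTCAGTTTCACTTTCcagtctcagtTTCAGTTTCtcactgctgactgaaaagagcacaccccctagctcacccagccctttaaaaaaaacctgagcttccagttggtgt
Oas1a, chr5:120907526-120907675, minus strand: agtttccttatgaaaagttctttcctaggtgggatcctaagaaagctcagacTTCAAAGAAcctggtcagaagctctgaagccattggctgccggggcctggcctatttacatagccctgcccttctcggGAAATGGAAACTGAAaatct
Igtp, chr11:58199406-58199555, plus strand: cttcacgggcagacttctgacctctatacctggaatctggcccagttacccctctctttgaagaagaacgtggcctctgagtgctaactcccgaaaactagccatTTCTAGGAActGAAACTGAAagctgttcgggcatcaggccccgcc
Irf1, chr11:53769864-53770013, plus strand: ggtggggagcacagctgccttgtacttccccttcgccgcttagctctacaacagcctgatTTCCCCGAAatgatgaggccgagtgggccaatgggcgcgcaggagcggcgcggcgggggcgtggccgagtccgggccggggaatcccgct
Oasl1, chr5:114923090-114923239, plus strand: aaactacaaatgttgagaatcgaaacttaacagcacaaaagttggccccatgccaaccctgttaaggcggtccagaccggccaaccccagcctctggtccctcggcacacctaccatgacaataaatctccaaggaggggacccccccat

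Isg15 held 3 matches to the ISRE core, which begin at positions -78, -72 and -66 relative to the start and overlap in 1 run, and its transcript was 1.16-fold higher in CREBH-Tg. Ifit1 also held 3 core matches, at -109, -103 and -84, the first 2 overlapping, and its log2 ratio was -0.042. Oas1a had 2 overlapping core matches at -20 and -14 and a GAS match at -98. Igtp had a core match at -34 and a GAS match at -45 that do not overlap. Irf1 had a GAS match at -90 in the first of its 2 listed promoters, and Oasl1 had neither motif in its window. A match is a description of the letters and does not show that a factor bound there.

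Windows of 300 bases, from 250 before to 50 after the start, were listed for 30 of the 38 genes. Dhx58, Zbp1, Oas2, Mx1, Mx2, Usp18, Iigp1 and Parp14 had none. The ISRE core was found on either strand in 18 of the 30 genes (60%), against 9.76% of 27025 genes and 8.56% of all 32851 windows. More than 1 core match, overlapping ones included, was found in 10 of these genes and in 0.624% of all windows. The GAS was found in 8 of the 30 (26.7%), against 9.55% of all genes and 8.30% of all windows. The 17 measured genes with a core match had a median log2 ratio of 0.036 and ran from -0.23 to 0.21. The 12 without one had a median of 0.097 and ran from -0.45 to 0.29, so the ranges overlapped. For the GAS, the median was 0.092 in the 8 genes with a match and 0.041 in the 21 without.

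On the arrays themselves, 55.4% of 59305 spots were well above background in WT and 58.3% in CREBH-Tg, none was saturated, and the 75th percentile of processed intensity was 333 and 309. Each level below is the log2 processed signal minus that percentile on the same array, a log2 ratio is CREBH-Tg minus WT, and levels are not compared between genes because probes differ in brightness. Genes were divided by signal into 3 classes of equal size. In probes spotted at least 5 times, the 95% range of a single-spot log2 ratio was 0.40 in the dimmest class, 0.17 in the middle and 0.095 in the brightest. This range holds spot noise alone and leaves out differences between animals, pools, labelling reactions and hybridisations. All 8 hepatocyte markers were measured, with a median log2 ratio of 0.070 and 6 of 8 above 0. Apoa1 was the farthest from 0, at 8.18 in WT and 8.52 in CREBH-Tg, while Tat (-0.082) and Cps1 (-0.11) lay below 0. With no scaling between the arrays 1 of the 8 was above 0.

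The interferon-response genes stood close together in the 2 genotypes. None of the 35 was 2-fold higher or lower, where 0.663% of all measured genes were 2-fold higher and 0.67% 2-fold lower. None reached 1.5-fold either, against 2.33% of all genes higher and 2.23% lower. Their median log2 ratio was 0.071, or 1.05-fold, and they ran from -0.45 for Oasl1 to 0.57 for Zbp1. The median of all genes was 0.027, with 90% of them between -0.39 and 0.42.

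A small shift upwards was present, and its size depends on how the arrays are scaled to each other. Of the 35 genes, 27 (77.1%) lay above 0, where 56.2% of all genes did. By signal class, 15 of 17 were above 0 in the brightest class (all genes 66.1%), 11 of 16 in the middle class (52.7%) and 1 of 2 in the dimmest (49.8%). With no scaling between the arrays, 16 of the 35 were above 0 against 31.0% of all genes, and the medians moved to -0.038 for the set and -0.082 for all genes. Counted from the median of all genes, which a constant per array cannot change, 25 of the 35 lay above it, against 23 after quantile normalization and 22 after loess. Beyond the 95% range of spot noise, 13 genes (37.1%) were higher, where 21% of all genes were, and 4 (11.4%) were lower, where 13.2% of all genes were. The other 18 lay within that range, which is one of single spots and too wide for Tap1, a mean of 10 spots. The range narrows with signal, and only 2 of the 35 genes were in the dimmest class. The shares of all genes are therefore not matched for signal, here or below. In the brightest class 8 of 17 were higher beyond the range, where 34.6% of all genes in the class exceeded a log2 ratio of 0.0998, just past it. In the middle class 5 of 16 were, where 16.7% exceeded 0.168.

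**Figure D1:**
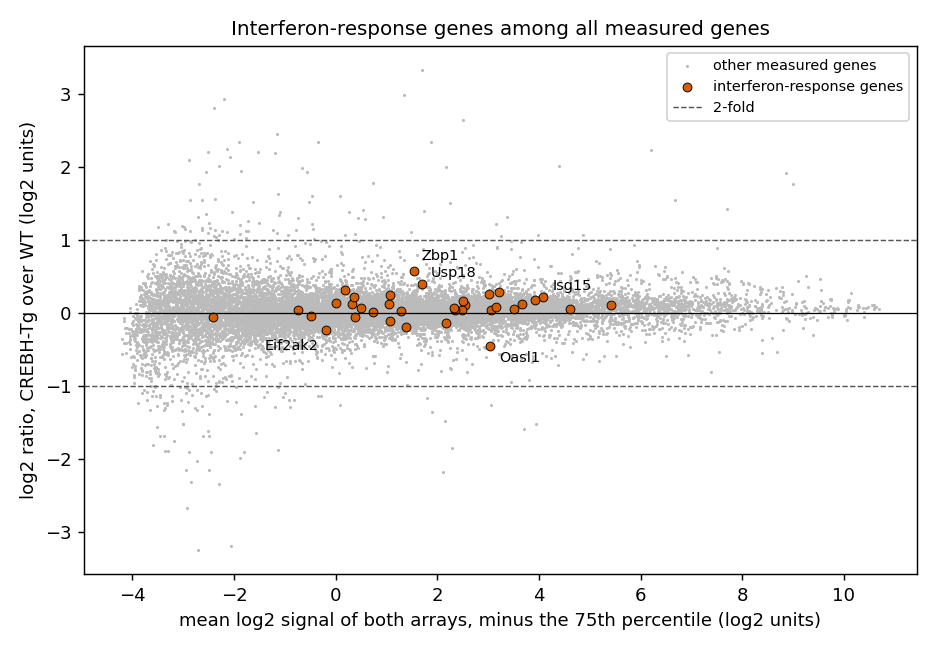
The vertical axis is the log2 ratio of CREBH-Tg over WT and the horizontal axis the mean log2 signal of both arrays minus the 75th percentile, both in log2 units; grey points are all measured genes, orange points the 35 interferon-response genes, and dashed lines mark 2-fold. The orange points stay between -0.45 and 0.57, inside the 2-fold lines, with Zbp1 and Usp18 uppermost and Oasl1 lowest.

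**Figure D2:**
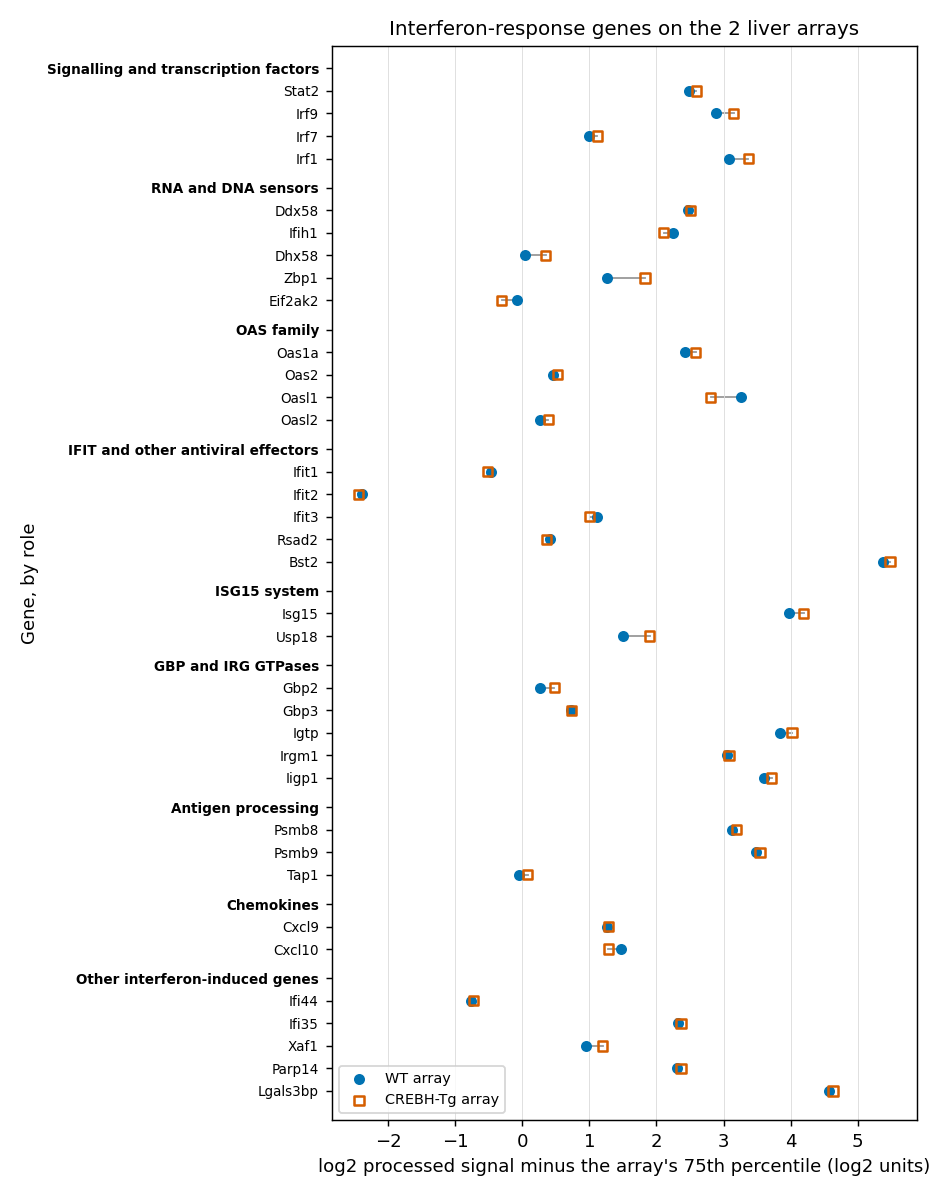
The horizontal axis is the log2 processed signal minus the array's 75th percentile for each of the 35 genes, grouped by role, with a filled circle for the WT array and an open square for the CREBH-Tg array (1 pool each, no error bars). The symbols nearly coincide for most genes and stand farthest apart for Zbp1, Oasl1 and Usp18; positions of different genes are not comparable.

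Of the factors that carry the interferon signal, all 4 listed were higher in CREBH-Tg, with a median log2 ratio of 0.19. Beyond spot noise were 3 of the 4, where 21% of all genes were higher. Irf1, a transcription factor of the interferon gamma response, stood at 3.08 in WT and 3.37 in CREBH-Tg, or 1.22-fold higher. Irf9, the DNA-binding partner of the STATs, went from 2.89 to 3.15, or 1.20-fold. Stat2 stood at 2.49 and 2.60, a log2 ratio of 0.11. Irf7, which drives interferon alpha genes, stood at 0.99 and 1.11, and its log2 ratio of 0.12 was within spot noise. The 4 genes were above 0 under each of the 12 processing settings, although Stat2 came down to 0.0018 with no scaling between arrays.

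The sensors of foreign RNA and DNA went both ways. Zbp1, a sensor of Z-form nucleic acid that can trigger necroptosis, was the highest of all 35 genes. Its log2 signal was 1.26 in WT and 1.83 in CREBH-Tg, or 1.49-fold, and 1.51% of the genes in its signal class had a higher ratio. A second Zbp1 probe gave 0.46. Dhx58 (LGP2), a relative of RIG-I without signalling domains, was at 0.033 and 0.35, or 1.24-fold higher. Ddx58, which encodes RIG-I, stood at 2.47 and 2.50, a log2 ratio of 0.036 within noise, while its second probe gave 0.35.

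Lower in CREBH-Tg were Eif2ak2 (PKR), the kinase that stops translation on sensing double-stranded RNA, and Ifih1 (MDA5), a sensor of long double-stranded RNA. Eif2ak2 was at -0.075 in WT and -0.31 in CREBH-Tg, or 1.18-fold lower. Ifih1 was at 2.25 and 2.11, a log2 ratio of -0.14. A second Ifih1 probe was above background in CREBH-Tg but not in WT, at -3.58 against -4.16, so the 2 probes did not point the same way. Both genes were below 0 under every setting that measured them.

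In the 2'-5'-oligoadenylate synthetase family, whose active members make the messenger that turns on RNase L, 1 gene stood out downwards. Oasl1 lacks synthetase activity and is known to restrain translation of Irf7. Its log2 signal was 3.26 in WT and 2.81 in CREBH-Tg, or 1.37-fold lower, and 1.21% of its signal class lay lower. Irf7 transcript, as given above, was within noise. Oas1a went the other way, from 2.42 to 2.58, or 1.12-fold higher, with a second probe at 0.014. Oas2 and Oasl2 had log2 ratios of 0.071 and 0.12 within noise. Oas3 was well above background in CREBH-Tg alone, at -3.91 against -4.47 in WT, where the lowest signal well above background was -4.13. That gives a bound of at least 1.17-fold higher, set against that lowest signal, which is not a strict limit of detection. On the log2 scale the bound is 0.22, smaller than the 0.40 range of spot noise in the dimmest class. With no filter on dim probes, the only setting that measured Oas3, its log2 ratio of 0.57 was within spot noise. Oas1a has near-identical neighbours whose transcripts its probes may also bind, so its own value is uncertain.

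The genes of proteins that bind viral RNA or act on viral budding differed little, and their side of 0 turned with the scaling. Of the 5 measured, 4 lay below 0, all within spot noise, whereas median scaling put 4 of 5 above 0. The group's median log2 ratio was -0.055 (between -0.16 and 0.034 over the settings). Ifit3 was the lowest, at 1.12 in WT and 1.0 in CREBH-Tg. Ifit1, which binds viral RNA caps, was at -0.47 and -0.52, and the dim Ifit2 at -2.39 and -2.45. Rsad2 (viperin), which makes a chain-terminating nucleotide, was at 0.41 and 0.36. Bst2 (tetherin), which holds budding virus at the cell surface, was the exception at 5.37 and 5.48, a log2 ratio of 0.11 beyond noise. Ifit3 has a near-identical copy, Ifit3b, that may share its probe.

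The ISG15 pair was higher in CREBH-Tg on all 3 of its measured probes. Isg15, whose promoter is shown above, stood at 3.98 in WT and 4.20 in CREBH-Tg, or 1.16-fold higher. Its probes gave log2 ratios of 0.21 and 0.23. Usp18, the protease that removes ISG15 and blocks the type I receptor, stood at 1.5 and 1.90, or 1.32-fold, and 3.33% of its class lay higher. It was second to Zbp1 among the 35. Usp18 kept a log2 ratio between 0.29 and 0.48 and Isg15 between 0.11 and 0.30 over the settings.

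The GTPases that gather on pathogen vacuoles lay above 0 as a group, with a median log2 ratio of 0.12 (0.015 to 0.21 over the settings). Higher beyond noise were 3 of 5, where 21% of all genes were. Gbp2, a guanylate-binding protein, was at 0.26 in WT and 0.48 in CREBH-Tg, or 1.16-fold. Igtp (Irgm3) was at 3.84 and 4.02, or 1.13-fold. Its probe was spotted 10 times, and 10 of 10 spots lay above 0 (from 0.054 to 0.24, SD 0.056 between spots of 1 array pair). Iigp1 was at 3.60 and 3.72, or 1.09-fold, with a second probe at 0.077, and 28.0% of its signal class lay higher. Irgm1, which regulates the other IRG proteins, had a log2 ratio of 0.038. Gbp3 stood at 0.72 and 0.73 and was the gene closest to 0 of all 35, at 0.0034. Members of both families resemble each other in sequence, and their probes may cross-hybridise.

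Genes of peptide processing for MHC class I lay inside the range of single-spot noise, a range that is too wide for Tap1. Tap1, a subunit of the transporter that moves peptides into the endoplasmic reticulum, was at -0.053 in WT and 0.082 in CREBH-Tg. Its log2 ratio of 0.13 is the mean of 10 spots, which ran from -0.015 to 0.30 (SD 0.11), with 9 of 10 above 0. The range of a single spot is too wide for such a mean, so it does not place Tap1 within noise. The immunoproteasome subunits Psmb8 and Psmb9 had log2 ratios of 0.075 and 0.057, at 3.12 and 3.49 in WT and 3.20 and 3.54 in CREBH-Tg.

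Of the chemokines that draw T cells through CXCR3, 1 of 2 was lower in CREBH-Tg beyond noise. Cxcl10 was at 1.47 in WT and 1.28 in CREBH-Tg, or 1.14-fold lower, and lay below 0 under every setting. Cxcl9 was at 1.27 and 1.29, with probes at 0.023 and 0.087, within noise.

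Among the remaining 5 genes, Xaf1, a promoter of apoptosis, was at 0.95 in WT and 1.20 in CREBH-Tg, or 1.19-fold higher. The other 4 lay within noise. Ifi35 was the lowest of the 5 at 0.038, Ifi44 was at 0.041, and the ADP-ribosyltransferase Parp14 at 0.059. Lgals3bp, a secreted glycoprotein, was at 4.58 and 4.63, and its second probe lay on the other side of 0, at -0.052. It was the 1 exception among 8 genes with more than 1 measured probe, since the probes of the other 7 lay on 1 side.

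A short list of genes differed beyond spot noise whichever way the arrays were scaled. Higher beyond spot noise under all 12 settings were Irf9, Irf1, Zbp1, Isg15 and Usp18, and lower under all of them was Oasl1. In all, 16 genes stayed above 0 and 5 below, the latter being Ifih1, Eif2ak2, Oasl1, Ifit3 and Cxcl10. The remaining 14 lay on both sides of 0 as the scaling changed.

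**Figure D3:**
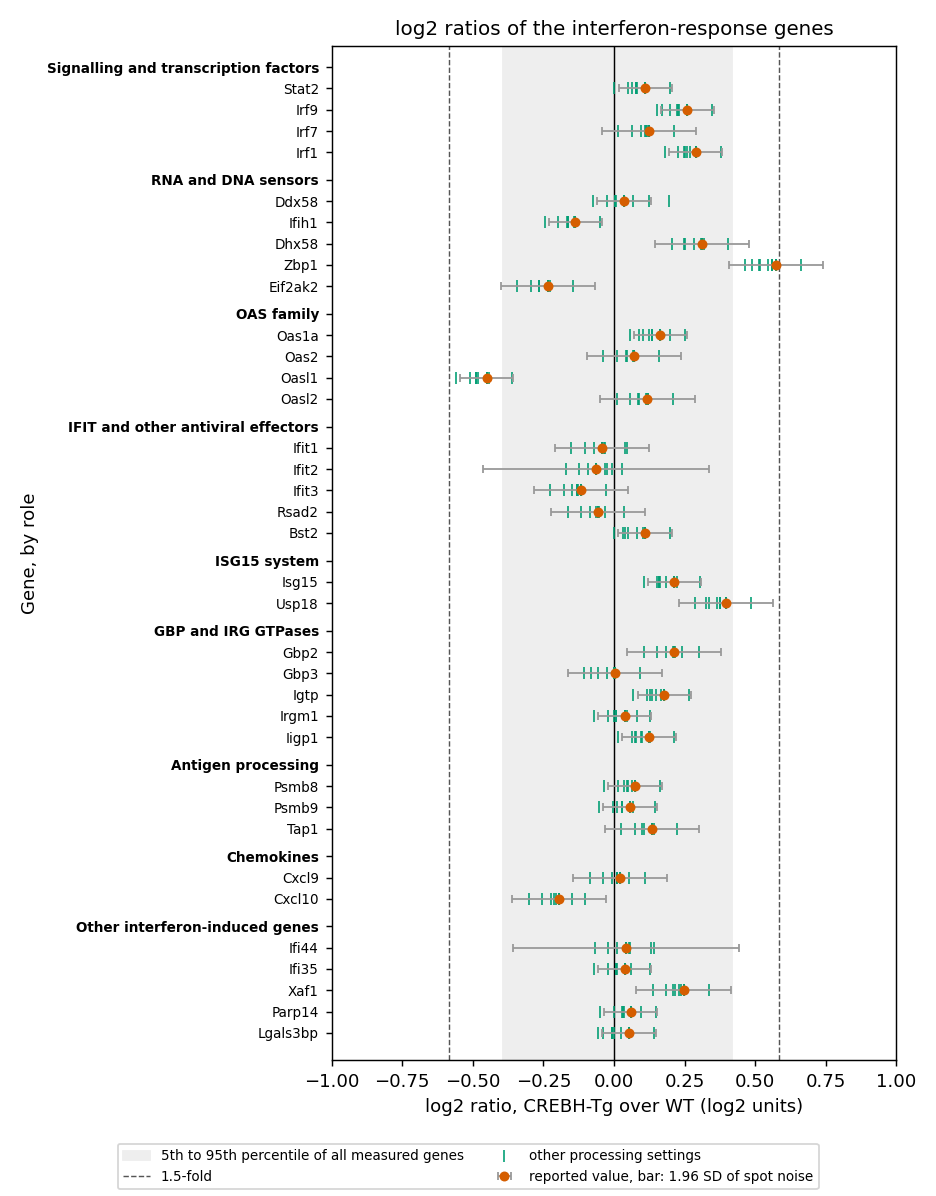
The horizontal axis is the log2 ratio of CREBH-Tg over WT for the 35 genes by role: orange points are the values reported, grey bars the 95% range of spot noise, green ticks the values under the other settings, the grey band the 5th to 95th percentile of all measured genes, and dashed lines 1.5-fold. Zbp1 lies above the band and Oasl1 below it, the points of the other 33 genes lie inside it, and no reported value reaches 1.5-fold, though Zbp1 does under median scaling (0.66).

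Of the other genes of the pathway, 110 genes in 8 further lists, 93 were measured on both arrays and none of these was 2-fold apart. Of the 93, 67 (72%) lay above 0, where 56.2% of all genes did, and the median log2 ratio was 0.074. Higher beyond noise were 31 of them (33.3%), where 21% of all genes were, and lower 6 (6.45%), where 13.2% of all genes were. These shares of all genes are again not matched for signal. Transcripts of the interferons themselves were mostly at the limit of the arrays. Of 9 ligands, Ifna4, Ifnb1, Ifne and Ifng were above background in neither genotype. Ifnk was the farthest from 0 of the 4 that were measured, at -2.26 in WT and -2.66 in CREBH-Tg, a difference just within the noise of its class.

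Receptors and kinases had a median log2 ratio of 0.0020, with 2 of 9 higher beyond noise (22.2%, close to the 21% of all genes) and none lower. Ifnar2, a chain of the type I receptor, was at 4.02 and 4.27, or 0.25 higher on the log2 scale. Repressors of the pathway had a median of 0.013, and the phosphatase Ptpn2 was farthest from 0 at -0.20. For adaptors of nucleic acid sensing the median was 0.077, with 10 of 12 above 0. The dim DNA sensor Cgas had a log2 ratio of -0.29, within noise. Tlr3, a sensor of double-stranded RNA, was above background in CREBH-Tg alone, at -4.98 in WT and -4.30 in CREBH-Tg, too near the limit for a fold.

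Further interferon-induced genes had a median log2 ratio of 0.11, with 12 of 29 higher beyond noise (41.4%, all genes 21%) and 3 lower (10.3%, all genes 13.2%). The list held the 2 genes of the pathway at 1.5-fold. Tor3a, an ATPase of the endoplasmic reticulum, was at -0.30 in WT and 0.53 in CREBH-Tg, a log2 ratio of 0.83, and its second probe gave 0.59. Herc6, the mouse ligase that attaches ISG15, was at -1.74 and -2.33, a log2 ratio of -0.59, but its second probe gave 0.077. Further GBP and IRG genes had a median of 0.14, with 5 of 12 higher beyond noise (all genes 21%), led by the dim Gbp4 at 0.45. Further genes of MHC class I presentation had a median of 0.052, with H2-Q4 lowest at -0.58, in a family whose probes can cross-hybridise.

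MHC class II genes, which interferon gamma induces through CIITA, stood highest of the 8 lists. All 7 lay above 0, from 0.14 to 0.35, and the median log2 ratio was 0.30 (0.19 to 0.39 over the settings). Higher beyond noise were 5 of the 7, where 21% of all genes were. H2-Eb1 was the farthest, at 4.44 in WT and 4.80 in CREBH-Tg. Ciita itself was dim, at -3.05 and -2.81, a log2 ratio of 0.23 within noise. MHC class II genes are also made by antigen-presenting cells.

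Markers of other cells were read beside these values, since fewer cells of a type and less RNA per cell cannot be told apart in whole liver. T cell markers had a median log2 ratio of 0.31, with 5 of 6 measured above 0. Cd3d was 2.14-fold higher and dim, at -2.69 in WT and -1.59 in CREBH-Tg, while Cd8a was above background in neither genotype. Their summed level, in multiples of the 75th percentile, was 96.4 in WT and 121 in CREBH-Tg, nearly all of it from 1 bright Cd4 probe. That probe stood at 6.49 in WT and 6.83 in CREBH-Tg, a log2 ratio of 0.34. The second Cd4 probe, spotted 8 times, was dim, at -2.81 and -2.76, and its log2 ratio was only 0.050. The 2 probes therefore differed widely in level, and the value of Cd4 is uncertain. When probes of the same gene were averaged, the T cell median fell to 0.24. B cell markers had a median of 0.21, with 3 of 4 above 0, a summed level of 0.771 and 0.965, and Cd79b at 0.46. Pax5 went the other way: it was above background in WT alone, with a bound of at least 1.66-fold lower in CREBH-Tg.

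Macrophage and Kupffer cell markers had a median of -0.041, with 4 of 9 above 0. Their summed level was 140 in WT and 128 in CREBH-Tg, though such sums give bright probes the most weight. The scavenger receptor Marco, the largest part of that fall, was 1.94-fold lower, at 3.93 and 2.97. Adgre1 was also lower beyond noise, at -0.33 on both probes, and C1qb was higher beyond it at 0.095. Of the 9, 2 were lower beyond noise (22.2%, all genes 13.2%) and 1 higher (11.1%, all genes 21%). Dendritic cell markers, a list that also holds Bst2, had a median of 0.093, and Itgax was the farthest from 0 at 0.41. Siglech (-0.16), Tcf4 (-0.15) and Clec9a (-0.23) lay below 0. A second Siglech probe was dim and above background in CREBH-Tg but not in WT, at -3.64 against -3.99, so the Siglech probes did not point the same way. They also differed widely in level, the bright one standing at 8.14 in WT, so the value of Siglech is uncertain. The summed level of the dendritic cell markers was 325 in WT and 300 in CREBH-Tg, most of it, and all of the difference, from 1 bright Siglech probe. For neutrophils the median was -0.023, with summed levels of 218 and 181, nearly all from the bright Csf3r probe, which was at -0.31. That probe stood at 7.63 in WT, and no second Csf3r probe was named to check its level. S100a8 (0.14) and S100a9 (0.22) lay above 0, the latter beyond noise. NK cell markers were mostly undetected: Ncr1, Klrb1c, Klra8, Klrk1 and Eomes were above background in neither genotype. Gzma was at -0.11 and Prf1 at -0.054, within noise, and Gzmb was above background in WT alone, with a bound of at least 1.76-fold lower in CREBH-Tg. Endothelial markers had a median of 0.055, with 5 of 7 above 0 and summed levels of 111 and 122. Beyond noise, 2 were higher (28.6%, all genes 21%) and 1 was lower (14.3%, all genes 13.2%). Lyve1 was the farthest from 0 at -0.34, and Clec4g was at 0.25. The part of these cells in the interferon-response values was not tested.

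**Figure D4:**
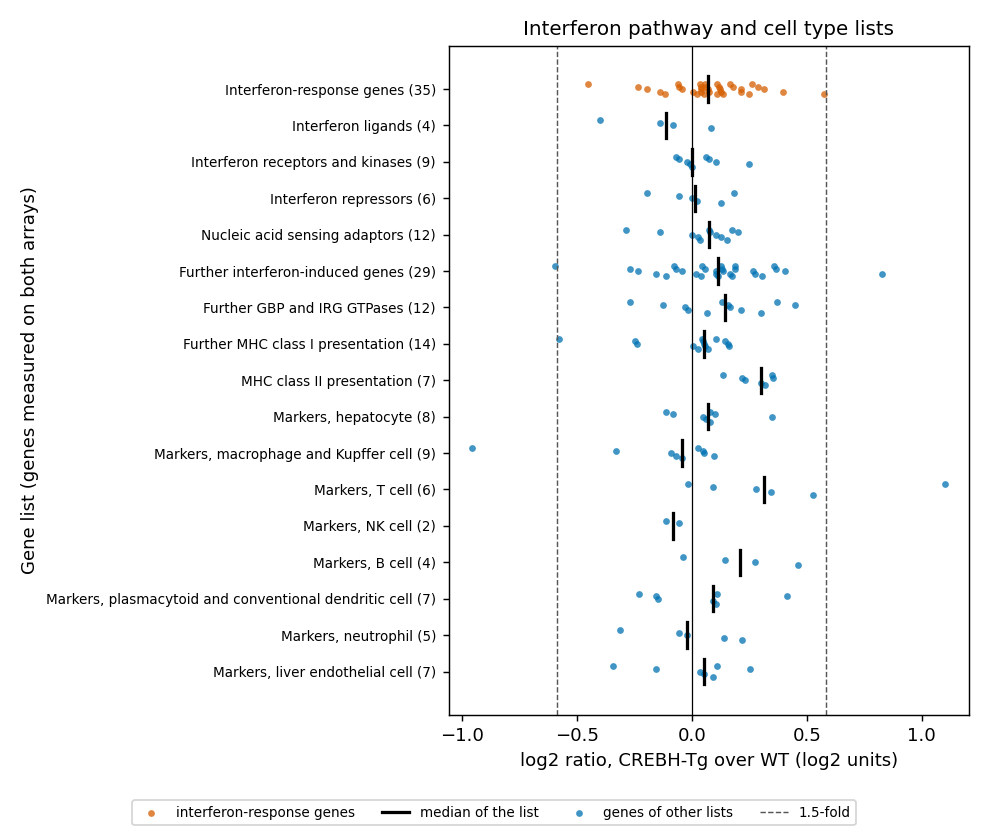
The horizontal axis is the log2 ratio of CREBH-Tg over WT; each line is a gene list with the number of its genes measured on both arrays in brackets, points are genes (orange for interferon-response genes, blue for the others), black bars are list medians and dashed lines mark 1.5-fold. MHC class II genes (median 0.30) and T cell markers (median 0.31) lie to the right of the interferon-response genes (median 0.071).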

How the data were processed

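Pooled liver RNA of each genotype was measured on 1 Agilent array. Per the labels' protocols, RNA was extracted with Trizol and its cRNA labelled with Cy3. Feature Extraction 10.10.1.1 of Agilent gave the spot values, with probes annotated on mm9, per the file headers. The deposited processed signal is a linear intensity from which the local background was taken off, not scaled across arrays. The deposited median spot and background signals are intensity values too. In the authors' value table every WT intensity is 2.59 times, and every CREBH-Tg intensity 2.68 times, the processed signal (100% of values within 2%). The sources used here do not say how these factors were set.

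Values here are log2 processed signal minus the 75th percentile of the same array, without control spots and 300 outlier spots. A probe counted as measured when more than 50% of its spots were well above background, and a gene took its brightest probe measured on both arrays. Transcript accessions were matched without versions to RefSeq (GRCm38.p6), which named 27233 of 55677 probes. Promoters came from RefSeq. Spot noise was taken from 276 repeated probes, as the SD of their single-spot log2 ratios, and 1.96 SD is its 95% range. With 1 array per group no test was possible, and the number of arrays limits the precision.

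The genes and lists were chosen with earlier results of these data known. Values are given for genes 1.5-fold apart or seen on 1 array, and for the highest and lowest of each role; the others were named to account for the whole set. In other lists, genes 1.5-fold apart or else the farthest from 0 were named. A gene that the rule names is not reported here. Cd4, other markers named beside the farthest of a list, and genes seen on 1 array or none were added after their values were seen.

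The alternatives were median scaling, the 75th percentile over spots well above background, quantile and loess (span 0.3) normalization, the authors' table, normexp (offset 50) on the median spot signal, the mean over probes, and no or a stricter filter. The authors' table as deposited, no scaling between arrays and counts from the all-gene median were added after the data were seen. Steps were tested on simulated data. Python 3.11.15, numpy 2.4.6, pandas 2.3.3, R 4.3.3 and limma 3.58.1 were used.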

Additional observations from a re-analysis of the deposited data

How the results depend on the processing

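No gene of the set was 2-fold apart under any of the 11 alternatives. Scaling by 1 constant per array can set the side of 0, because it adds the same amount to every log2 ratio. Quantile and loess normalization instead shift genes by differing amounts. Median scaling left 5 of 35 genes below 0, put 23 higher and 1 lower beyond spot noise, and gave a median of 0.16 and 1 gene (Zbp1, 0.66) at 1.5-fold. With the authors' table as deposited, 17 lay below 0. With no scaling between the arrays, which moved the median of all genes by -0.11, 16 lay above and 19 below 0, 6 were higher beyond noise and the median was -0.038. The median of the set minus that of all genes was 0.044 with the values used and 0.029 to 0.085 over the alternatives. This difference is not matched for signal. In the brightest class the set's median was 0.075 and that of all genes 0.051. The medians were 0.095 and 0.011 in the middle class, and -0.010 (2 genes) and -0.0026 in the dimmest. The stricter filter measured 25 genes, of which 4 lay below 0, 2 were lower beyond noise and 16 lay above the all-gene median. Of 375 single values, 357 moved by less than the spot noise, 18 by more, and none of those called changed sign. Many of the 375 could hardly move. The authors' table differs from the processed signal by 1 constant per array, so scaling it again gave back the set's median of 0.071. A gene with 1 measured probe also kept that probe in the mean over probes and under the filters that it passed. The 357 are therefore not separate checks. Over all genes, 92 higher and 93 lower at 2-fold became 42 and 17 under normexp, 17 and 8 under the stricter filter and 605 and 782 with no filter. No replicate could be left out. No paired analysis was possible because each genotype has 1 array.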

Other observations

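The chain that attaches and removes ISG15 can be followed through the listed genes, chosen here after their values were seen. Isg15 and its protease Usp18 were 1.16-fold and 1.32-fold higher in CREBH-Tg. Uba7, the enzyme that activates ISG15, stood at 1.85 in WT and 1.78 in CREBH-Tg, a log2 ratio of -0.077 within spot noise. The ligase Herc6 was dim, and its probes gave -0.59 and 0.077. The genes of the chain therefore did not all lie on 1 side of 0.

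Some further interferon-induced genes were among the brighter values above noise, also chosen after they were seen. Ifi27l2a, a mitochondrial protein gene strongly induced by interferon, was at 3.22 in WT and 3.63 in CREBH-Tg, and 3.31% of its signal class had a higher ratio. Rtp4, a chaperone of receptors at the cell surface, was at 3.42 and 3.69.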
